A study of Homo sapiens with 4 samples.

Results

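The genes of the cytosolic translation factors were examined in 2 lines of human prostate cancer cells, the parental PC-3 line and its bone-metastatic derivative. Members were the probe sets of the whole-transcript Affymetrix array to which the platform annotation gave exactly 1 gene symbol, starting with EIF (eukaryotic initiation factor) or EEF (eukaryotic elongation factor) and followed by a digit. Each gene was represented by the probe set with the highest mean over the 4 arrays. This gave 62 genes out of 18417, from 70 probe sets. PC3-P (labelled PC-3) is the parental line, derived from a bone metastasis and given a poor metastatic potential in the labels. PC3-BM (labelled PC-3-BM) has a high metastatic potential in the labels and was obtained, per the study's methods, by repeated intracardiac injection of PC3-P cells into male athymic nude mice, harvest of tumor cells from long bones, geneticin selection, expansion in culture and sorting for green fluorescent protein. Both lines carried firefly luciferase and green fluorescent protein, and PC3-BM is 1 selected derivative, so any difference may belong to that derivative. Each line had 2 arrays. Nothing in the labels says that the numbered arrays are of separate cultures, and p-values therefore describe the spread of these arrays alone, which may be technical. Growth in mice is named in the labels and culture in the methods, and from which of these the RNA was taken is not settled.

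Protein synthesis starts when the factor eIF2, loaded with GTP, brings the initiator tRNA to the small ribosomal subunit, and when eIF4F, made of the cap-binding protein eIF4E, the scaffold eIF4G and the helicase eIF4A, brings in the mRNA. The large complex eIF3 holds these parts together, eIF1 and eIF1A guide the scan for the start codon, and eIF2B recharges eIF2 with GTP for the next round. Kinases that phosphorylate the alpha subunit of eIF2 turn it into an inhibitor of eIF2B, which lowers general translation under stress, while eIF4E-binding proteins keep eIF4E away from eIF4G until mTORC1 phosphorylates them. During elongation, eEF1A delivers aminoacyl-tRNA, the eEF1B subunits recharge eEF1A, eEF2 moves the ribosome along and eIF5A helps at difficult peptide bonds. Many of these mRNAs, like those of ribosomal proteins, begin with a terminal oligopyrimidine tract, known as a TOP, through which mTORC1 controls their translation.

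Values are robust multichip average (RMA) expression on the log2 scale, differences are PC3-BM minus PC3-P, and a gene is said to have risen or fallen where limma gave an adjusted p below 0.05 over all 33297 probe sets. Arrays of a line correlated at r of 0.996 or 0.997 and arrays of different lines at 0.983 to 0.985, over probe sets, which are not independent replicates. Of 6 epithelial markers 4 fell, among them the keratins KRT8 and KRT18, and the summed linear level of the list went from between 7478 and 7892 in PC3-P to between 4869 and 4942 in PC3-BM. Of the prostate luminal genes, only KLK3 and KLK2 were measured, and their means of 5.83 and 5.91 lay under the median of all values (6.69). Of 8 blood cell markers the lysosomal CD68 rose, and the summed level of the list went from between 1880 and 1885 to between 2818 and 3015. CD68 was the brightest of the list (means 10.66 in PC3-P and 11.38 in PC3-BM) and weighs most in this sum. CD14, ITGAM, HBB, CD3E, MS4A1 and MPO had differences below 0 (−0.26 to −0.003), none past the test. PTPRC, the pan-leukocyte marker, differed by 0.24 without passing and was among the 4 blood markers below the lower quartile of all values (5.02). Of 6 stromal markers COL1A1 and LUM rose (summed level 547 to 566 against 728 to 741), LUM with means of 3.56 and 4.10, under the lower quartile. Of 5 endothelial markers PECAM1 rose, while VWF, CDH5, KDR and TEK had differences below 0, none past the test. The summed level of the endothelial list was not higher (1977 to 2156 against 1826 to 1952). KDR was the brightest of this list (means 10.87 in PC3-P and 10.71 in PC3-BM) and weighs most in that sum. Without 1 array, KRT18, KRT19 and PECAM1 lost their calls whichever was left out, LUM kept its call only without PC3-BM array 2, and the others kept theirs. The part of these markers in the differences below was not tested.

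Of the 62 translation factor genes, 18 fell and 2 rose in PC3-BM, with EIF1AX and EIF2AK3 changing most in either direction. In these bulk samples, less RNA of a gene per cell and fewer cells that carry it cannot be told apart. The median difference was −0.18, against −0.04 over all genes and −0.02 over all probe sets. Over all probe sets 23.2% were called, 11.6% lower and 11.6% higher, and over the brightest probe sets of all genes 29.6% were called, 14.8% lower and 14.8% higher. Of the factor genes 32.3% were called, 29.0% lower and 3.23% higher. Bright probe sets were called more often, and 57 of the 62 genes had a mean above 7, a limit chosen after their values were seen. Among all 10146 genes above it 43% were called, 21.2% lower and 21.8% higher. The share of factor genes called was thus above that of all probe sets and below that of bright genes, among which calls were split about evenly by direction. The values of the lines did not overlap for 56 genes, 43 of them lower and 13 higher in PC3-BM (69.4% and 21.0% of members, against 34.3% and 28.5% of all probe sets, where 62.8% did not overlap in either direction). Under the stricter rule of the study, a change above 2 log2 units and an adjusted p below 0.001, 17 of all probe sets passed in limma (0.0511%) and 0 of the factor genes. The paper reports more differentially expressed genes at these thresholds, a count that the fit here did not reproduce. An unadjusted p below 0.05 was found for 36 factor genes, 30 lower and 6 higher (48.4% and 9.68%), against 36.4% of all probe sets, 19.1% lower and 17.4% higher, and against 30.1% lower and 28.9% higher among bright genes.

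**Figure D1:**
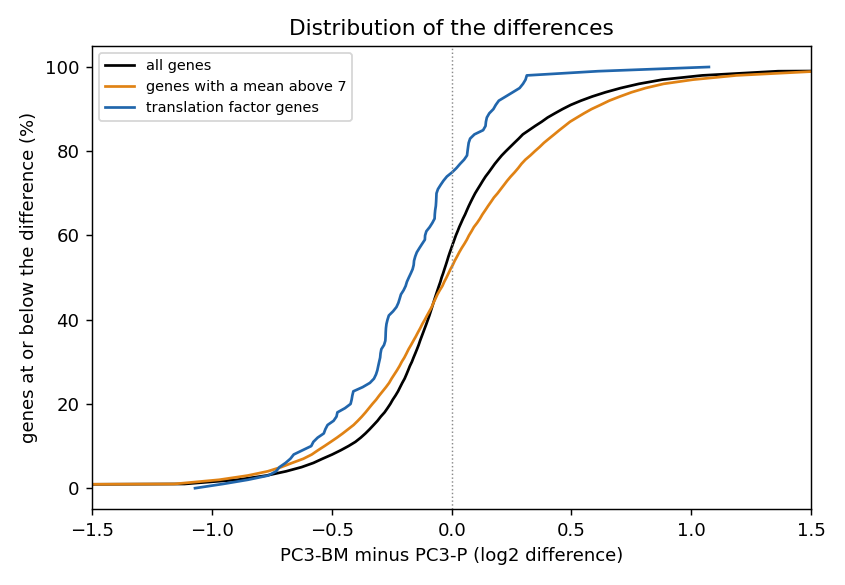
Cumulative share of genes (vertical axis, percent) at or below a given log2 difference, PC3-BM minus PC3-P (horizontal axis), for all 18417 genes (black), the 10146 genes with a mean above 7 (orange) and the 62 translation factor genes (blue). The blue curve runs left of the others through its middle part, with a median of −0.18 against −0.04 and −0.02, and ends at 1.07.

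The number of calls depended on each array. Leaving out array 1 or array 2 of PC3-P left 7 and 4 factor genes called (11.3% and 6.45%, against 7.31% and 6.72% of all probe sets in the same fits). Leaving out array 1 or array 2 of PC3-BM left 8 and 6 (12.9% and 9.68%, against 9.87% and 11.6%). All of these were among the 20. Counted in either direction, the share of factor genes called was above that of all probe sets without PC3-P array 1 or PC3-BM array 1. It was below that share without PC3-P array 2 or PC3-BM array 2. By direction, the share that fell was above that of all probe sets in each of these fits, and the share that rose was below it. The genes that passed in each of these fits were EIF1AX, EIF2B2, EIF2D and EIF2AK3. No difference of the 20 genes changed its sign in the reduced fits. That outcome was fixed, since the values of the lines did not overlap for any of the 20. With the arrays centred on their medians, 14 genes fell and 3 rose (22.6% and 4.84%, against 9.77% and 12.6% of all probe sets).

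**Figure D2:**
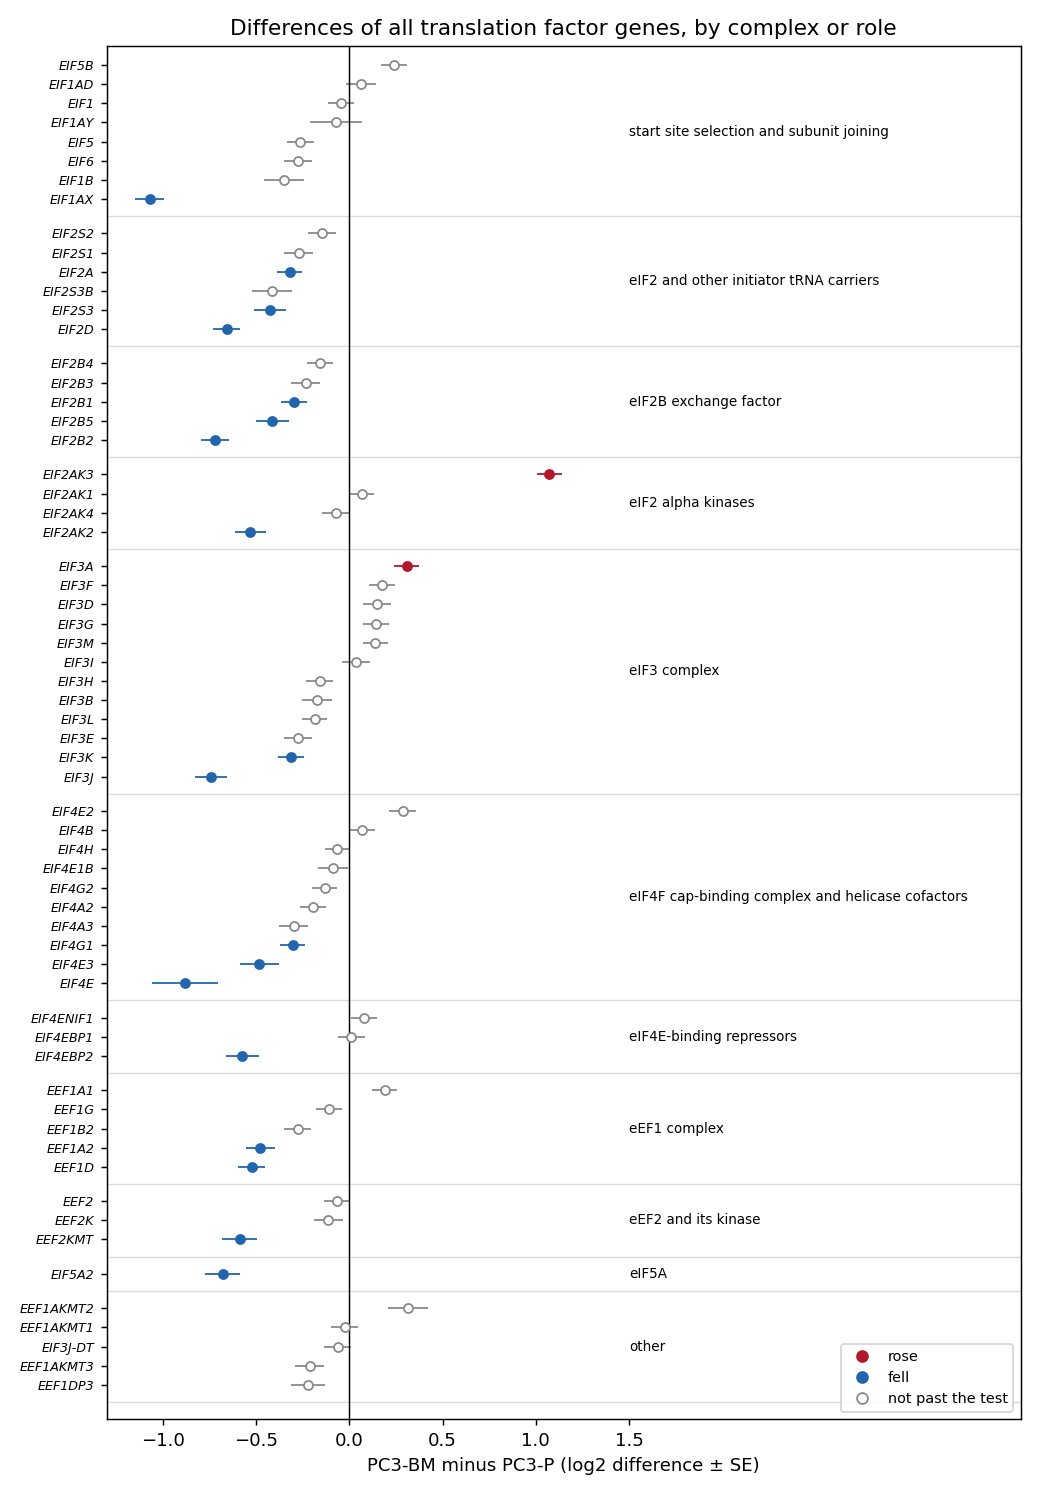
Log2 differences, PC3-BM minus PC3-P, of the 62 translation factor genes (horizontal axis, bars are the SE of the fit), grouped by complex or role on the vertical axis. Filled blue circles fell, filled red circles rose and open grey circles did not pass the test, and all 6 initiator tRNA carriers and all 5 eIF2B subunits lie left of 0, whereas the 12 eIF3 genes spread from −0.74 to 0.31.

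**Figure D3:**
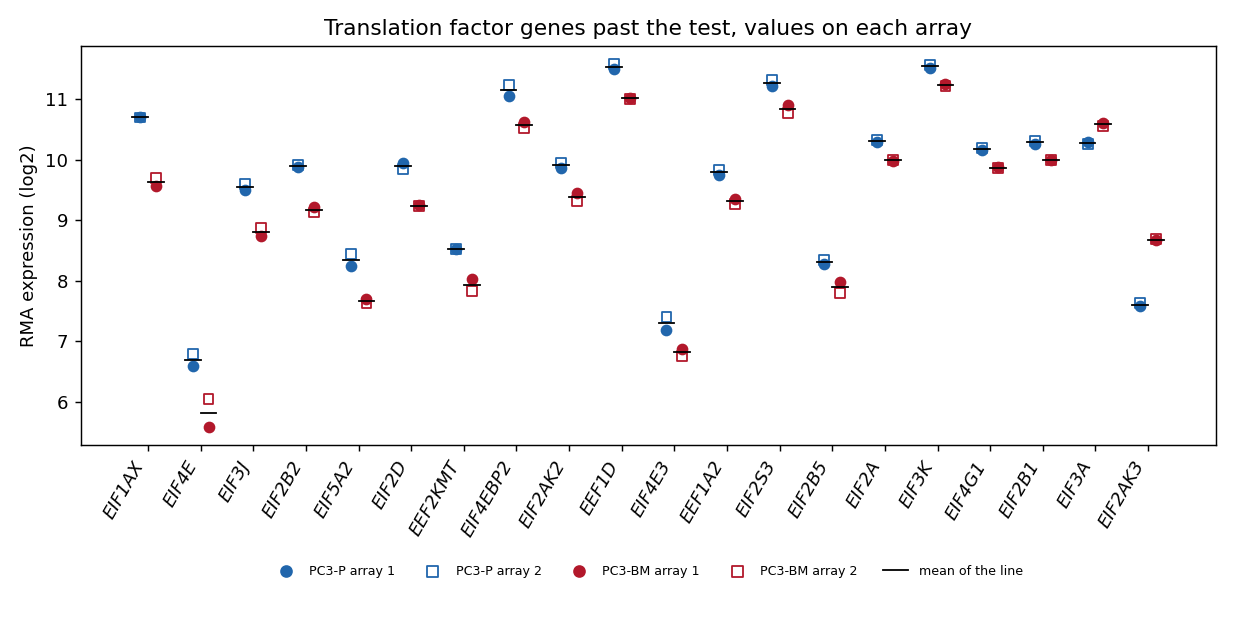
RMA expression (log2, vertical axis) on each array of the 20 translation factor genes past the test (horizontal axis, ordered by difference). Blue marks are PC3-P and red marks PC3-BM, filled circles and open squares are arrays 1 and 2, and black bars are means of a line, and EIF1AX moves from 10.71 to 9.64 and EIF2AK3 from 7.61 to 8.68 with no overlap.

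Among the factors that select the start codon and join the subunits, EIF1AX fell and the others did not pass the test. EIF1AX, which encodes eIF1A, the partner of eIF1 in scanning, had log2 values of 10.72 and 10.70 in PC3-P and 9.57 and 9.71 in PC3-BM. The values of the lines were separated by about a log2 unit, many times the gap between arrays of a line. This was a fall of 52.4% on the linear scale (log2 difference −1.07, SE 0.08, limma, adjusted p = 0.00273). A further probe set annotated to EIF1AX alone differed by −1.003 (SE 0.08, limma, adjusted p = 0.00293), and pseudogene copies of the gene may share signal with both. The call was kept without any single array (limma, adjusted p 0.0192 to 0.0367). The near-identical paralogue EIF1AY did not pass, and its probe set lay below the lower quartile of all values. EIF5, the activator of GTP hydrolysis by eIF2, differed by −0.26 (SE 0.07, limma, adjusted p = 0.0623). EIF6, which keeps large subunits from joining too early, had a difference of −0.28 (SE 0.07, limma, adjusted p = 0.0592). For EIF5B, the GTPase of subunit joining, log2 values were 9.33 and 9.40 in PC3-P and 9.59 and 9.61 in PC3-BM, higher in PC3-BM without overlap but not past the test (log2 difference 0.24, SE 0.07, limma, adjusted p = 0.0717). EIF1 itself was at 12.60 and 12.61 in PC3-P and 12.60 and 12.52 in PC3-BM, a difference smaller than the gap between the PC3-BM arrays (log2 difference −0.04, SE 0.07, limma, adjusted p = 0.7).

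All 6 measured genes of eIF2 and other carriers of initiator tRNA were lower in PC3-BM on both arrays. Of these 3 fell, and the median difference over the list was −0.37. Over all probe sets 34.3% were lower without overlap, and 14.8% of all genes and 21.2% of those with a mean above 7 fell. EIF2D, an alternative carrier that also acts in ribosome recycling, had log2 values of 9.94 and 9.85 in PC3-P and 9.25 and 9.23 in PC3-BM. It was lower by 36.5% on the linear scale (log2 difference −0.66, SE 0.07, limma, adjusted p = 0.00588). EIF2S3, the gamma subunit of eIF2 that binds GTP and tRNA, was at 11.22 and 11.32 in PC3-P and 10.92 and 10.78 in PC3-BM (log2 difference −0.42, SE 0.09, limma, adjusted p = 0.0274). EIF2A, a carrier used on some mRNAs in place of eIF2, was at 10.29 and 10.33 in PC3-P and 9.99 and 9.998 in PC3-BM (log2 difference −0.32, SE 0.07, limma, adjusted p = 0.0306). The alpha subunit EIF2S1, the target of the stress kinases, differed by −0.27 (SE 0.08, limma, adjusted p = 0.0679). The beta subunit EIF2S2 differed by −0.15 (SE 0.08, limma, adjusted p = 0.23). EIF2S3B, a close copy of EIF2S3, differed by −0.42 (SE 0.11, limma, adjusted p = 0.0531), with means below the lower quartile in both lines. EIF2D kept its call without any single array (limma, adjusted p 0.0375 to 0.049), whereas EIF2S3 and EIF2A lost theirs whichever array was left out (limma, adjusted p 0.0624 to 0.134 and 0.102 to 0.138). EIF2A also lost its call with centred arrays (limma, adjusted p = 0.0519).

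The 5 subunits of eIF2B were likewise lower in PC3-BM on both arrays, with a median difference of −0.30, and 3 fell. The shares over all features were 34.3% of probe sets lower without overlap and 14.8% of genes that fell (21.2% with a mean above 7). EIF2B2, the beta subunit, had log2 values of 9.88 and 9.92 in PC3-P and 9.23 and 9.13 in PC3-BM. This was a fall of 39.3% on the linear scale (log2 difference −0.72, SE 0.07, limma, adjusted p = 0.0051). EIF2B5, the epsilon subunit that carries the exchange activity, was at 8.27 and 8.34 in PC3-P and 7.98 and 7.80 in PC3-BM (log2 difference −0.41, SE 0.09, limma, adjusted p = 0.0336). EIF2B1, the alpha subunit, was at 10.27 and 10.31 in PC3-P and 9.99 and 9.99 in PC3-BM (log2 difference −0.30, SE 0.07, limma, adjusted p = 0.0383). The gamma subunit EIF2B3 differed by −0.23 (SE 0.08, limma, adjusted p = 0.102) and the delta subunit EIF2B4 by −0.16 (SE 0.07, limma, adjusted p = 0.187). EIF2B2 kept its call without any single array (limma, adjusted p 0.0307 to 0.0482). EIF2B5 and EIF2B1 lost theirs in each reduced fit (limma, adjusted p 0.0566 to 0.153 and 0.123 to 0.159), and EIF2B1 also with centred arrays (limma, adjusted p = 0.0688).

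The 4 kinases of eIF2 alpha went different ways. EIF2AK3, which encodes PERK, the kinase of the endoplasmic reticulum stress response, had log2 values of 7.58 and 7.64 in PC3-P and 8.67 and 8.69 in PC3-BM. Both PC3-BM arrays lay above both PC3-P arrays by about a log2 unit. The gene rose 2.1-fold (log2 difference 1.07, SE 0.07, limma, adjusted p = 0.00222) and kept its call without any single array (limma, adjusted p 0.0205 to 0.034). EIF2AK2, which encodes PKR, the kinase activated by double-stranded RNA, was at 9.87 and 9.95 in PC3-P and 9.45 and 9.31 in PC3-BM and fell (log2 difference −0.53, SE 0.08, limma, adjusted p = 0.0136). It kept its call without PC3-BM array 1 and lost it without each of the other arrays (limma, adjusted p 0.0448 to 0.0869 over the reduced fits). The heme-regulated kinase EIF2AK1 differed by 0.07 (SE 0.07, limma, adjusted p = 0.53). The amino acid sensor EIF2AK4, known as GCN2, differed by −0.07 (SE 0.07, limma, adjusted p = 0.542). Whether the change of one kinase differed from that of another was not tested.

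The eIF3 complex had no common direction, with 6 of 12 measured genes below 0 and 6 above, a median difference of −0.06, 2 that fell and 1 that rose. These calls were 16.7% and 8.33%, against 14.8% each over all genes and 21.2% and 21.8% of those with a mean above 7. Without overlap, 50% of the 12 were lower and 41.7% higher, against 34.3% and 28.5% of all probe sets. EIF3J, a loosely attached subunit that acts at the decoding centre, had log2 values of 9.502 and 9.60 in PC3-P and 8.74 and 8.87 in PC3-BM. It was lower by 40.2% on the linear scale (log2 difference −0.74, SE 0.08, limma, adjusted p = 0.00637). EIF3K, a peripheral subunit, was at 11.52 and 11.58 in PC3-P and 11.26 and 11.22 in PC3-BM and fell (log2 difference −0.31, SE 0.07, limma, adjusted p = 0.0358). EIF3A, the scaffold of the complex, was at 10.30 and 10.27 in PC3-P and 10.61 and 10.57 in PC3-BM and rose (log2 difference 0.31, SE 0.07, limma, adjusted p = 0.0357). Its companion in the scaffold, EIF3C, is not analysed here. The core subunit EIF3B differed by −0.17 (SE 0.08, limma, adjusted p = 0.201). Of the other subunits, EIF3E, EIF3L and EIF3H were lower in PC3-BM without overlap (−0.27, −0.19 and −0.16) and EIF3F, EIF3D, EIF3G and EIF3M higher without overlap (0.18, 0.15, 0.14 and 0.14). None of these 7 passed the test, with adjusted p from 0.0581 to 0.219 in limma, while EIF3E and EIF3L had unadjusted p-values below 0.05. EIF3I overlapped between the lines (0.04, SE 0.07). EIF3J kept its call except without PC3-P array 2 (limma, adjusted p = 0.0537). EIF3K and EIF3A lost theirs in each reduced fit (limma, adjusted p 0.113 to 0.154 and 0.0992 to 0.15), and EIF3K also with centred arrays (limma, adjusted p = 0.0642). The symbol EIF3J-DT, a noncoding transcript that starts beside EIF3J and runs the other way, matched the rule by its name. Its difference was −0.06 (SE 0.07, limma, adjusted p = 0.58).

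In the eIF4F group, 3 of 10 measured genes fell (30%, against 14.8% of all genes and 21.2% of those with a mean above 7). EIF4E, which is among those that fell, has a mean below 7, so the last share is not of a like set. Differences below 0 were found for 8. EIF4E, the cap-binding protein, had log2 values of 6.60 and 6.79 in PC3-P and 5.58 and 6.05 in PC3-BM. All PC3-BM values lay under the PC3-P values, but the PC3-BM arrays were further apart than those of any other called factor gene. The gene was lower by 45.7% on the linear scale (log2 difference −0.88, SE 0.18, limma, adjusted p = 0.0267). EIF4E3, a relative of EIF4E, was at 7.19 and 7.41 in PC3-P and 6.88 and 6.75 in PC3-BM and fell (log2 difference −0.48, SE 0.10, limma, adjusted p = 0.0324). EIF4E2, also known as 4EHP, which competes for the cap and represses translation, was at 9.22 and 9.29 in PC3-P and 9.58 and 9.51 in PC3-BM. This was higher in PC3-BM without overlap and just outside the test (log2 difference 0.29, SE 0.07, limma, adjusted p = 0.0524), and it passed with centred arrays (limma, adjusted p = 0.0493). EIF4G1, the main scaffold, was at 10.17 and 10.19 in PC3-P and 9.88 and 9.87 in PC3-BM and fell (log2 difference −0.30, SE 0.07, limma, adjusted p = 0.0339), and its relative EIF4G2 differed by −0.13 (SE 0.07). The helicase gene EIF4A2 differed by −0.19 (SE 0.07), and EIF4A3, the helicase of the exon junction complex, differed by −0.30 (SE 0.08, limma, adjusted p = 0.0534). The helicase cofactors EIF4B and EIF4H differed by 0.07 and −0.06. EIF4E kept its call only without PC3-BM array 2 (limma, adjusted p 0.0262 to 0.137 over the reduced fits), and EIF4E3 and EIF4G1 lost theirs in each reduced fit (limma, adjusted p 0.063 to 0.128 and 0.118 to 0.143). EIF4G1 also lost its call with centred arrays (limma, adjusted p = 0.0597).

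Of the repressors that bind eIF4E, EIF4EBP2 fell, from log2 values of 11.06 and 11.23 in PC3-P to 10.62 and 10.53 in PC3-BM (log2 difference −0.57, SE 0.09, limma, adjusted p = 0.0139). Its paralogue EIF4EBP1 was at 9.87 and 9.82 in PC3-P and 9.89 and 9.82 in PC3-BM, overlapping between the lines (log2 difference 0.01, SE 0.07, limma, adjusted p = 0.931). EIF4ENIF1, the nuclear importer of eIF4E known as 4E-T, differed by 0.08 (SE 0.07). The call of EIF4EBP2 was kept without PC3-P array 1 and lost without each of the other arrays (limma, adjusted p 0.0497 to 0.0758 over the reduced fits).

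Among elongation factors, both genes of the general tRNA carrier eEF1A were measured. EEF1A1, the form of most tissues, was at 12.99 and 13.01 in PC3-P and 13.18 and 13.19 in PC3-BM, higher in PC3-BM without overlap but not past the test (log2 difference 0.19, SE 0.07, limma, adjusted p = 0.11). A further EEF1A1 probe set differed by 0.20 (SE 0.07), and EEF1A1 has many pseudogene copies whose transcripts could share its signal. EEF1A2, the form of muscle and neurons, was at 9.75 and 9.83 in PC3-P and 9.36 and 9.27 in PC3-BM and fell (log2 difference −0.48, SE 0.08, limma, adjusted p = 0.0144). Whether the difference of EEF1A2 differed from that of EEF1A1 was not tested. Of the exchange factor subunits, EEF1D was at 11.497 and 11.59 in PC3-P and 11.03 and 11.004 in PC3-BM and fell (log2 difference −0.52, SE 0.07, limma, adjusted p = 0.0102). A dimmer EEF1D probe set differed by −0.22 (SE 0.13, limma, adjusted p = 0.303) with overlapping values. EEF1B2 differed by −0.28 (SE 0.07, limma, adjusted p = 0.0564), and EEF1G by −0.11 (SE 0.07, limma, adjusted p = 0.318). EEF2, the translocase, was at 11.95 and 11.9999 in PC3-P and 11.93 and 11.89 in PC3-BM (log2 difference −0.07, SE 0.07, limma, adjusted p = 0.552), and EEF2K, the kinase that switches it off, differed by −0.11 (SE 0.08). EEF2KMT, a lysine methyltransferase of eEF2, was at 8.53 and 8.52 in PC3-P and 8.04 and 7.83 in PC3-BM and fell (log2 difference −0.59, SE 0.09, limma, adjusted p = 0.0142). The annotation also gives this gene within probe sets of several FAM86 symbols, so related copies may share signal. EEF1A2 and EEF1D lost their calls in each reduced fit (limma, adjusted p 0.0549 to 0.0886 and 0.0533 to 0.0697), and EEF2KMT kept its call only without PC3-BM array 1 (limma, adjusted p 0.0341 to 0.0863 over the reduced fits).

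EIF5A2, the less widely expressed isoform of the hypusine-bearing factor eIF5A, had log2 values of 8.25 and 8.44 in PC3-P and 7.71 and 7.63 in PC3-BM. It fell by 37.5% on the linear scale (log2 difference −0.68, SE 0.09, limma, adjusted p = 0.00993). The call was kept without PC3-P array 1 or PC3-BM array 1 and lost without PC3-P array 2 or PC3-BM array 2 (limma, adjusted p 0.0417 to 0.0576 over the reduced fits). EIF5A itself, EIF4A1 and EIF3C carried only probe sets with several symbols and are not analysed here. Of the 5 other members, which are methyltransferases of eEF1A, a pseudogene and the EIF3J neighbour, EEF1AKMT2 had the largest absolute difference (0.32, SE 0.11, limma, adjusted p = 0.107).

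The neighbours of the called genes along the chromosome were counted as well. For each gene the 10 nearest genes on either side were taken by the order of the RefSeq gene table (assembly GRCh38.p14), and over all genes 14.8% fell and 14.8% rose. Around EEF1D 12 of 20 neighbours fell, with a median difference of −0.37. Around EIF4EBP2 9 of 20 fell (median −0.36) and around EIF4G1 9 of 20 (median −0.24). EIF2B5 lies near EIF4G1 on chromosome 3, so some neighbours may count for both, and 7 of its 20 fell (median −0.24). Around EIF2B2 and EIF4E3 7 of 20 fell in each case (medians −0.24 and −0.22), and around EIF2S3 7 fell and 3 rose (median −0.11). Around EIF4E 6 of 20 fell (median −0.09) and around EIF1AX 5 (median −0.06). Except around EEF1D most neighbours of these called genes did not fall. These counts shrank with fewer arrays, to between 6 and 7 around EEF1D, between 2 and 7 around EIF4EBP2, between 1 and 5 around EIF4G1, between 1 and 3 around EIF2B5 and EIF1AX, between 3 and 4 around EIF2B2 and EIF4E3 and between 0 and 2 around EIF2S3 and EIF4E. Of the 20 neighbours, 3 fell around EIF2D (median −0.13), 3 around EIF5A2 (median −0.09), where 3 rose, 1 around EIF3J (median 0.03) and 0 around EIF2AK3 (median −0.08), where 4 rose. Around EIF2A and EIF2AK2 3 fell and 3 rose in each case, and around EIF2B1 and EEF2KMT 3 fell and 2 rose. Around EEF1A2 2 fell and 0 rose, around EIF3K 1 fell and 3 rose and around EIF3A 0 fell and 4 rose. EIF5, which did not pass the test, had 14 of 20 neighbours that fell and 0 that rose (median −0.46). EEF1A1, also not past the test, had 0 that fell and 11 that rose (median 0.38). Around EEF1B2, itself lower in PC3-BM without passing, 0 fell and 10 rose (median 0.25). The neighbours of the other members not past the test are not listed here. The part of gene position in any difference was not tested.

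A TOP can be looked for at the annotated start of each gene. Of the 62 genes, 48 matched the RefSeq promoter windows of GRCh38.p14, which run from 250 bases before to 50 bases from the annotated start on. A tract was counted where the first transcribed base was a C followed by at least 4 pyrimidines. Of the 48 genes 13 had one (27.1%), against 5.14% of all 27305 genes of the table and 71.6% of 67 cytosolic ribosomal protein genes. The windows below show 10 bases before and 15 from the start on, in GRCh38.p14 and 5′ to 3′, with the tract in capitals. The first 4 are genes that did not fall and the others genes that fell, printed so that the tracts of both can be compared.
EEF1A1 (chr6:73521018-73521042, minus strand): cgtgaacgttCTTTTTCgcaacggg
EEF2 (chr19:3985449-3985473, minus strand): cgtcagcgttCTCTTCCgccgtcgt
EIF3F (chr11:7987327-7987351, plus strand): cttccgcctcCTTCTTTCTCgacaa
EIF3M (chr11:32583821-32583845, plus strand): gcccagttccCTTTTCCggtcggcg
EIF2D (chr1:206612451-206612475, minus strand): ccagccgggcCCTTTTCgcggccgg
EIF2S3 (chrX:24054946-24054970, plus strand): gatttccttcCTCTTTTggcaacat
EIF2A (chr3:150546777-150546801, plus strand): cgagcggtttCTCTTTCCgggacaa
EIF3K (chr19:38619178-38619202, plus strand): tttccaccacCTCTTCCTgttcccg
Genes with a tract did not share a direction. Of the 13, 4 fell (EIF2D, EIF2S3, EIF2A and EIF3K), 5 had differences above 0 (EEF1A1, EIF3F, EIF3D, EIF3M and EIF4B), and the median difference was −0.19. Among the 35 genes without one 11 fell, EIF2AK3 rose, and the median was −0.17. Over all genes 14.8% fell, and 21.2% of those with a mean above 7. In a list of 10 mRNAs known as TOP mRNAs, EEF1D and PABPC1 fell and the others did not pass, with a median of −0.13. EEF1G of this list was counted above among the genes without a tract. EEF1D, EIF3E and EIF3H of the list had no window, nor had the called EEF1A2, EEF2KMT and EIF3A, so the split is incomplete. A match is a description of the annotated sequence, and translation was not measured on these arrays.

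The E-box CACGTG, the letters bound by MYC and related factors, was looked for in the same 300-base windows, where it reads alike on both strands. It was present in 12 of the 48 genes (25%), against 8.77% of all genes in the table and 7.46% of ribosomal protein genes. Of these 12 genes 5 fell (EIF4E, EIF5A2, EIF2AK2, EIF3K and EIF4G1), EIF3F and EIF4B had differences above 0, and the median was −0.30. Over all genes 14.8% fell, and 21.2% of those with a mean above 7. Of the 36 without the letters 10 fell and EIF2AK3 rose, with a median of −0.14. The difference between these groups was not tested, and binding was not measured. Most of the 12 genes did not fall, and the windows of those are not printed. The windows below show the E-box in capitals with 12 bases on either side, in GRCh38.p14 and 5′ to 3′. They are from 4 of the genes that fell.
EIF4E first site (chr4:98929188-98929217, minus strand): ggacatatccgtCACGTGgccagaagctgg
EIF4E second site (chr4:98929341-98929370, minus strand): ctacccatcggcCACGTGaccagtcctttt
EIF4G1 (chr3:184314527-184314556, plus strand): ccctgcgccggtCACGTGggggcgccggct
EIF5A2 (chr3:170908782-170908811, minus strand): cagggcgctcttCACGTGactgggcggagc
EIF2AK2 (chr2:37157144-37157173, minus strand): gtgcaggggcagCACGTGggtgccaagccc
EIF4E, EIF4G1 and EIF5A2 each hold the letters in 2 places of the window.

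**Figure D4:**
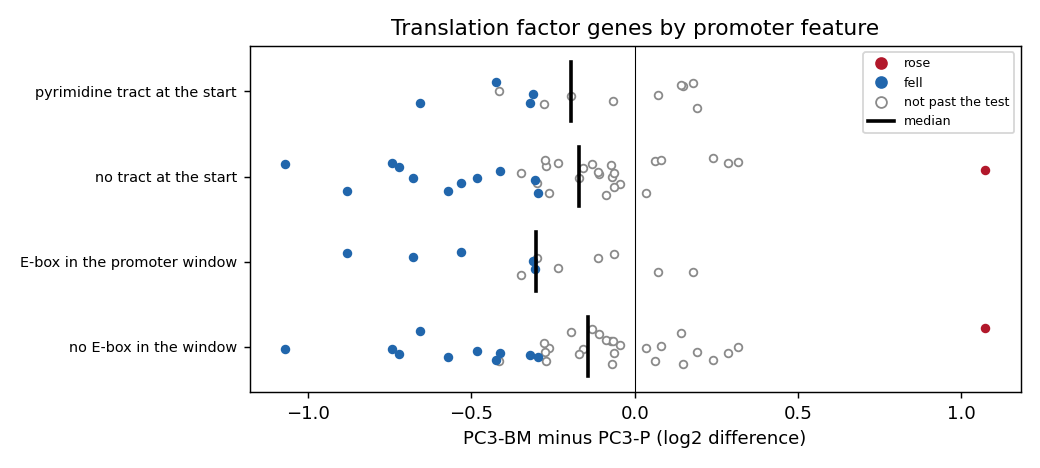
Log2 differences, PC3-BM minus PC3-P (horizontal axis), of the 48 translation factor genes with a RefSeq promoter window, split by a pyrimidine tract at the start and by an E-box in the window (vertical axis, small vertical shifts only separate points). Blue fell, red rose, open grey did not pass the test and black bars are medians, and the medians are −0.19 with and −0.17 without a tract and −0.30 with and −0.14 without an E-box.

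The rest of the translation pathway was read from lists of genes that are no members, apart from the list of known TOP mRNAs above. Beside the counts of these lists, 14.8% of all genes fell and 14.8% rose. Among genes with a mean above 7 these shares were 21.2% and 21.8%. Of 64 cytosolic ribosomal protein genes 25 fell (39.1%) and the other 39 did not pass. Differences below 0 were found for 58 and the median was −0.25, led by RPS24 (−1.04, SE 0.14) and RPL29 (−0.82, SE 0.08). Most of these calls were lost when 1 array was left out, and only RPS24 and RPL29 kept theirs in each case. Their transcripts have many pseudogene copies, which may share signal. Of 8 termination and recycling genes 4 fell and 1 rose. The release factor GTPase GSPT2 was at 7.24 and 7.46 in PC3-P and 6.58 and 6.12 in PC3-BM (log2 difference −0.997, SE 0.18, limma, adjusted p = 0.0189), and HBS1L, a rescue factor of stalled ribosomes, rose (log2 difference 0.65, SE 0.07, limma, adjusted p = 0.00536). Of 7 poly(A)-binding proteins and partners PABPC1 fell (−0.43, SE 0.07, limma, adjusted p = 0.0154) and so did PABPC1L (−0.31, SE 0.07). Of 8 enzymes that make hypusine on eIF5A or diphthamide on eEF2, DNAJC24 rose (0.45, SE 0.08) and DPH3 fell (−0.34, SE 0.08). HBS1L kept its call without any single array (limma, adjusted p at most 0.0482). GSPT2 lost its call without either PC3-P array (limma, adjusted p up to 0.109), DNAJC24 kept its call only without PC3-BM array 2, and PABPC1, PABPC1L and DPH3 lost theirs in each reduced fit, as did ETF1 and DENR, the other genes of the termination list that fell beside ABCE1, which kept its call only without PC3-BM array 2.

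Among 13 genes of mTORC1, S6 kinase and MNK signalling 3 rose, TSC1, DDIT4 and PDCD4. This was 23.1%, against 14.8% of all genes and 21.8% of those with a mean above 7, so the share lay near that of bright genes. The median of the list was 0.04. PDCD4, which binds the helicase eIF4A and blocks it, had log2 values of 7.78 and 7.67 in PC3-P and 9.26 and 9.27 in PC3-BM. The lines were separated by more than a log2 unit (log2 difference 1.54, SE 0.08, limma, adjusted p = 0.00149). DDIT4, an inhibitor of mTORC1, was at 6.68 and 6.70 in PC3-P and 8.79 and 8.54 in PC3-BM (log2 difference 1.98, SE 0.11, limma, adjusted p = 0.0016). MTOR differed by −0.10 (SE 0.08) and the S6 kinase gene RPS6KB1 by 0.04 (SE 0.10), and neither passed. The targeting subunits of the eIF2 alpha phosphatase moved apart. PPP1R15A, the stress-induced form known as GADD34, rose (log2 difference 0.74, SE 0.09, limma, adjusted p = 0.00813), although not without PC3-P array 1 (limma, adjusted p = 0.0579), whereas PPP1R15B, the constitutive form, fell (log2 difference −0.33, SE 0.07, limma, adjusted p = 0.0301) and lost its call in each reduced fit. Of 8 mitochondrial translation factors 3 fell and 2 rose, 37.5% and 25% against 14.8% each over all genes. Among genes with a mean above 7, 21.2% fell and 21.8% rose. They were led by the initiation factor MTIF2 (−0.83, SE 0.09) and the release factor MTRF1 (0.81, SE 0.08). PDCD4, DDIT4, MTIF2 and MTRF1 kept their calls without any single array, with adjusted p in limma of at most 0.0472, and so did the elongation factor GFM1, which fell. TSC1 lost its call in each reduced fit, as did TSFM and MTIF3, the other mitochondrial factors that fell and rose, so that 2 of this list fell and 1 rose whichever array was left out.

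**Figure D5:**
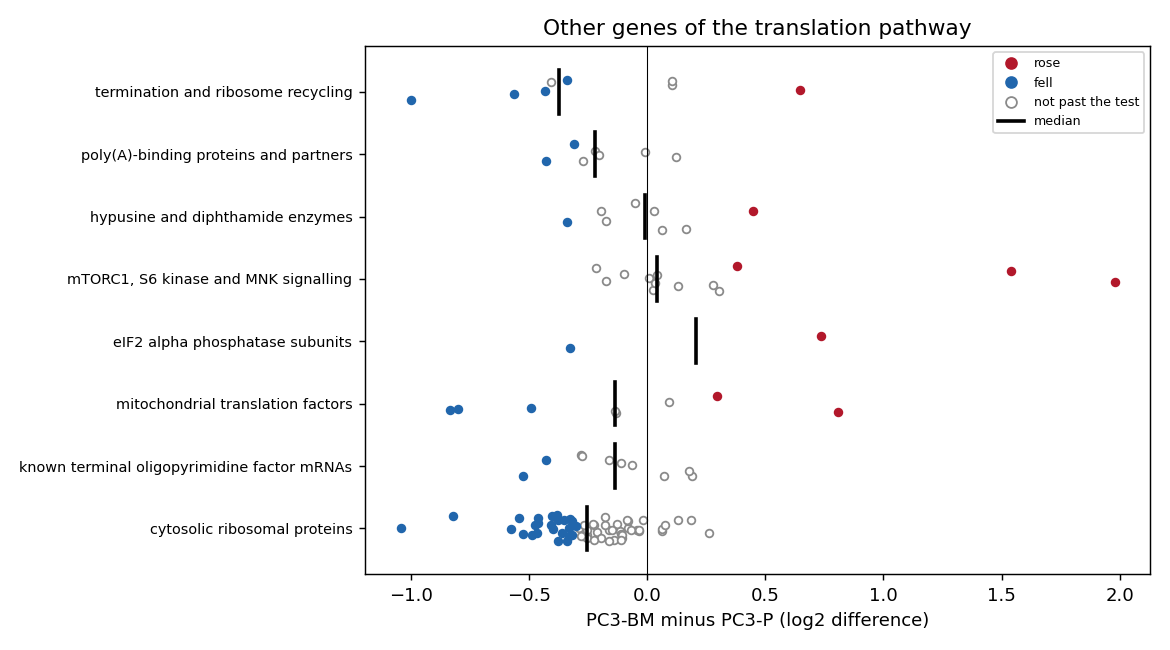
Log2 differences, PC3-BM minus PC3-P (horizontal axis), of other genes of the translation pathway by list (vertical axis, small vertical shifts only separate points). The list of known TOP mRNAs repeats factor genes that are members, and PABPC1 appears both there and among the poly(A)-binding proteins. Blue fell, red rose, open grey did not pass the test and black bars are medians, and the ribosomal protein genes have a median of −0.25, while DDIT4 and PDCD4 lie at 1.98 and 1.54 in the mTORC1 list.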

How the data were processed

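Total RNA of PC3-P and PC3-BM cells was hybridised to Affymetrix Human Gene 1.0 ST arrays, 2 per line. The deposited log2 values were made by the authors with RMA, and the submitters' processing notes name limma 3.24, R 3.2 and RMA. The genome build is not given in the sources used here. The 33297 probe sets were used as deposited, with no detection call and no filter. RMA equalises the arrays, so a change common to all transcripts would be hidden, and precision is limited by the number of arrays. Symbols came from the platform annotation, where 19460 probe sets had 1 symbol, 1754 several and 12083 none, and 18389 of 18417 symbols were matched by gene identifier to RefSeq (GRCh38.p14).

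The lines were compared by limma (version 3.58.1, R 4.3.3) on group means with empirical Bayes moderation, where the prior held 2.88 degrees of freedom and the residuals 2. Probe sets with a variance of 0 were offset by the tool. P-values were adjusted by Benjamini-Hochberg over the whole table, and the procedure was tested on simulated data. An exact two-sided permutation test of 2 against 2 arrays cannot go below 0.333. Every called member was named (at most 30), with paralogues and, in a group without calls, the member of largest absolute difference. In fits without an array, the lone array of a line was assumed to vary like those of the other. Other alternatives were a replicate block, median centring, a mean above 5, 1-symbol probe sets alone, a variance trend and the mean of a gene's probe sets. Members and lists were chosen with earlier results of these data known.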

Additional observations from a re-analysis of the deposited data

How the results depend on the processing

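Of the 20 factor genes called, all 20 kept their call with probe sets of a mean above 5, with 1-symbol probe sets alone, with a variance trend and with the mean of a gene's probe sets, and 16 kept it with centred arrays. No difference of these genes changed its sign under any alternative run. Without overlap between lines, leaving out an array could not reverse a sign, and the replicate block, filters and variance trend left the difference unchanged. Leaving out 1 array gave 2238 to 3854 probe sets called (933 to 1745 fell, 1305 to 2109 rose) and 4 to 8 factor genes, of which 3 to 7 fell and 1 rose, EIF2AK3. Fewer arrays leave 1 residual degree of freedom. With 1-symbol probe sets alone 32 factor genes were called and 5 rose, with a variance trend 32 were called and 6 rose, and with a mean above 5 the number that rose was 4, of 28. Over all probe sets of these fits 39.8%, 27% and 34.4% were called, also more than the 23.2% of the reported fit. At the study's thresholds 0 were called. The deviations of same-numbered arrays had a correlation of −0.02 over probe sets, which does not settle whether the array numbers pair the samples. With the array number as a replicate block 12 factor genes were called (19.4%, as of all probe sets). Of these 11 fell and 1 rose (17.7% and 1.61% of the factor genes, against 9.37% and 10.1% of all probe sets). The median difference of the factor genes ran from −0.20 to −0.14 over all alternatives run.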
